A study of Homo sapiens with 8 samples.

Results

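HP1a and HP1b binding was examined on chromosome 19 away from its zinc finger genes, in MCF10A cells, a non-tumorigenic line of human breast epithelium. The members were the broad ChIP-seq peaks that start between 5 and 53 Mb of chromosome 19 (hg38) and touch no body of a protein-coding gene named ZNF followed by digits. There were 22893 such peaks among the 1153532 peaks on chromosomes 1 to 22 and X, counted over all 8 libraries. The groups had 2 libraries each: HP1a ChIP in wild-type cells, HP1a ChIP in cells labelled HP1b knockdown, HP1b ChIP in wild-type cells, and HP1b ChIP in cells labelled HP1a knockdown. All groups are MCF10A, and the labels name no treatment of these libraries other than the knockdown. No source used here gives the way each knockdown was made, the protein left or the number of clones, and peak lists cannot show the level of either protein. The labels number the libraries 1 and 2 in each group without saying that they came from separate cultures, so every error below measures only the spread between these libraries.

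HP1a and HP1b, encoded by CBX5 and CBX1, are paralogous chromatin proteins that bind a methylated lysine in the tail of histone H3 and pair with each other or with themselves, and they are known from compacted, gene-poor heterochromatin. Chromosome 19 is the most gene-dense human chromosome. It also holds large clusters of KRAB zinc finger genes, whose bodies are a known target of HP1 proteins in many cell types. The stretch left after the 5.57 Mb of ZNF bodies were set aside was 42.4 Mb, or 1.40% of the 3029 Mb examined. It held 883 protein-coding genes, or 20.8 per Mb, against 6.59 per Mb in the whole genome. Of these genes, 6 carry a ZNF symbol that ends in a letter or a suffix, such as ZNF585B and ZNF780B, and stayed in because the selection names only symbols that end in digits.

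Few promoters held a peak, in the stretch as among all promoters, and those inside a peak are shown first. The promoter window of RefSeq (GRCh38.p14), from 250 bases before to 50 bases after the gene start, was available for 732 genes of the stretch. A peak touched such a window in both libraries of a group in 0 cases for HP1a in wild type, in 0 cases for HP1a in HP1b knockdown, in 2 for HP1b in wild type (LOC124900418 and SLC1A5) and in 5 for HP1b in HP1a knockdown (KLK3, KLK11, SIGLEC7, SIGLECL1 and SIGLEC8). The HP1b counts are 0.273% and 0.683% of the 732, beside 0.607% and 0.550% of all promoter windows. For HP1a, 0.183% of all windows were touched in wild type and 0.0126% after HP1b knockdown. Single libraries touched more: HP1b of wild type 20 and 23 windows, HP1b of HP1a knockdown 10 and 27, HP1a of wild type 5 and 7, and HP1a of HP1b knockdown 6 and 2. In that order these are 2.73% and 3.14%, 1.37% and 3.69%, 0.683% and 0.956%, and 0.820% and 0.273% of the 732. All promoter windows gave 3.12% and 3.94%, 1.56% and 3.04%, 1.78% and 1.31%, and 0.323% and 0.348%. In each HP1b group 0.137% of the 732 windows lay wholly inside a peak in both libraries. Among all promoter windows this was 0.139% in wild type and 0.196% after HP1a knockdown. Of all 732, 2 windows lay wholly inside a peak in both libraries of a group. They are printed 5′ to 3′ on the strand of the gene, with every CG dinucleotide in capitals (the letters CG read the same on both strands), because CG-rich sequence marks most promoters of broadly active genes.
SLC1A5: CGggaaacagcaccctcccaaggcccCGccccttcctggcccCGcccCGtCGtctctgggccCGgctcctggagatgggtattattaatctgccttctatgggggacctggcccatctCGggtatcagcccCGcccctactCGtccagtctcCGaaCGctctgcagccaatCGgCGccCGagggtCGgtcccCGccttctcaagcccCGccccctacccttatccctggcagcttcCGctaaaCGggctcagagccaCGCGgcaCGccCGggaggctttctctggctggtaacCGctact
SIGLEC7: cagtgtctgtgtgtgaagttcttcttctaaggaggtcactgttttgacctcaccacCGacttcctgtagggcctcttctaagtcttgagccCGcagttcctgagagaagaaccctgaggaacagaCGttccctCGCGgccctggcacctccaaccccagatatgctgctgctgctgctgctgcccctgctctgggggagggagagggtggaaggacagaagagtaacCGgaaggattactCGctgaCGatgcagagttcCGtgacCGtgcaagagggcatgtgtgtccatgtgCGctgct
The first window lies at chr19:46788545-46788844 on the minus strand and belongs to SLC1A5, a glutamine transporter. It has 24 CG dinucleotides at 66.7% G and C, and 46.1% of the 15812 protein-coding promoter windows in the table held at least as many. HP1b peaks of wild-type cells lay over it with a fold enrichment of 2.80 in library 1 and 2.80 in library 2. The SLC1A5 gene window was 4.33% and 5.75% covered in these libraries, and no peak was listed there in the other 6. The second window lies at chr19:51142209-51142508 on the plus strand and belongs to SIGLEC7, an inhibitory receptor of natural killer cells that binds sialic acid. It held 11 CG dinucleotides at 57% G and C, and 71.4% of all promoter windows held at least as many. An ATG upstream of the stated gene start opens a reading frame that runs to the end of this window without a stop. Part of the window may therefore be coding sequence, and its CG count may not be that of a promoter alone. HP1b peaks of HP1a knockdown cells lay over it with a fold enrichment of 2.60 and 3.03.

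HP1a peaks were far fewer after HP1b knockdown, and coverage of this stretch of chromosome 19 was lower by less than that of the rest of the genome. The number of member peaks was 2169 and 1820 in the wild-type HP1a libraries, and 820 and 739 after HP1b knockdown. They covered 2.68% ± 0.271 (SD, n = 2) of the stretch in wild type and 1.02% ± 0.0453 after knockdown, which is 2.64-fold lower. Coverage of the rest of the genome was 2.12% in wild type and 0.304% after knockdown, which is 6.98-fold lower. As a share of all peak bases of a library, the stretch therefore took 1.75% and 1.75% in wild type and 4.49% and 4.31% after HP1b knockdown, an increase of 2.65 percentage points with no overlap between the groups. With 2 libraries against 2 the exact permutation test cannot give a two-sided p below 0.333, and it gave 0.333 here and for the whole of chromosome 19, whose share was 2.89% and 2.96% in wild type and 7.05% and 6.73% after knockdown. The lists differ in depth of calling: the lowest −log10 p of a listed peak was 2.75 and 2.80 in wild type and 3.43 and 3.43 after HP1b knockdown. With peaks of a −log10 p of at least 4 the share was 2.68% in wild type and 4.49% after knockdown, and with equal numbers of the strongest peaks 2.72% and 4.40%, a difference of 1.68 points.

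HP1b peaks were more numerous in all 4 libraries and followed a different course. Wild-type HP1b libraries held 4421 and 4626 member peaks, and HP1a knockdown libraries 3515 and 4783. Coverage of the stretch was 8.50% ± 0.233 in wild type and 10.1% ± 2.74 after HP1a knockdown, with overlapping groups. The share of peak bases was 2.23% and 2.34% in wild type and 2.94% and 3.11% after HP1a knockdown, so the difference of 0.737 points was larger than the spread between libraries (exact permutation p = 0.333). The share of whole chromosome 19 was 3.85% and 3.98% in wild type against 5.10% and 5.17% after HP1a knockdown. Among peaks with a −log10 p of at least 4 the difference of the stretch was 0.193 points, with overlap (exact permutation p = 1), and that of whole chromosome 19 was −0.933 points. Between the antibodies in wild-type cells, the HP1b share was 0.540 points above the HP1a share, without overlap, and 0.208 points above it at the stricter limit, with overlap (exact permutation p = 1).

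Chromosome 19 led all chromosomes in each of these comparisons. Outside ZNF genes its share of peak bases was 2.79-fold higher for HP1a on HP1b knockdown, ahead of chromosome 22 (1.71-fold), chromosome 16 (1.55-fold) and chromosome 17 (1.53-fold), which are also rich in genes. For HP1b on HP1a knockdown its share was 1.39-fold higher, the highest of 23 chromosomes, while chromosomes 16, 17 and 22 as a set took 7.40% in wild type and 7.27% after knockdown, with overlapping groups. The ratio of peak bases in the stretch to peak bases on chromosomes 16, 17 and 22 was 0.293 for HP1a in wild type, 0.468 after HP1b knockdown, 0.309 for HP1b in wild type and 0.416 after HP1a knockdown. It did not overlap between the groups of either knockdown comparison. Peaks over ZNF genes of the same 48 Mb took 0.722% of the HP1a peak bases of wild type and 0.976% after HP1b knockdown, a ratio of 1.35 beside the ratio of 2.52 outside ZNF genes. Peak bases outside ZNF genes were 2.43 times those over them in wild type and 4.51 times after HP1b knockdown, without overlap (exact permutation p = 0.333), the lowest p this design allows. The tips of chromosome 19 beyond both borders of the stretch took 0.455% in wild type and 1.51% after HP1b knockdown, a ratio of 3.32.

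**Figure D1:**
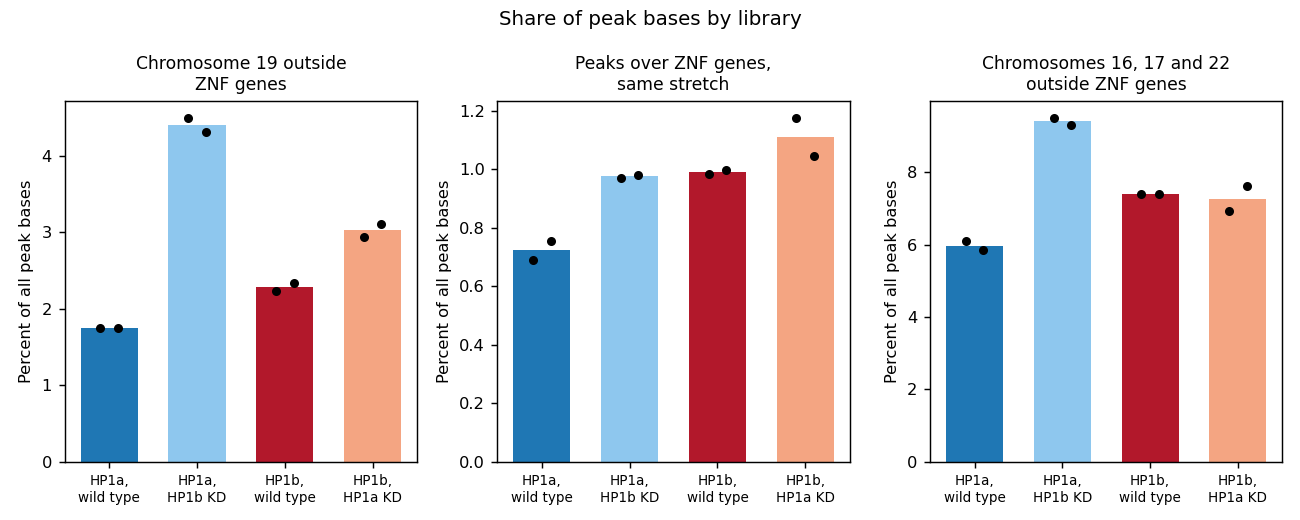
Share of all peak bases (percent, vertical axis) in peaks of chromosome 19 outside ZNF genes, in peaks over ZNF genes of the same stretch, and on chromosomes 16, 17 and 22. Bars are group means and dots the 2 libraries of each group (KD, knockdown): for chromosome 19 outside ZNF genes the HP1a bars stand at 1.75% and 4.40% and the HP1b bars at 2.29% and 3.02%.

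Peaks of the stretch were wider than those elsewhere, and wide peaks belonged mostly to HP1b. The median width was 481.5 bases for HP1a in wild type, 502.5 after HP1b knockdown, 609 for HP1b in wild type and 708 after HP1a knockdown, while peaks elsewhere had medians of 444.5, 443, 528.5 and 557 bases. Peaks of at least 4 kb made up 0.731% of the HP1b member peaks in wild type and 2.27% after HP1a knockdown, against 0.156% and 0.482% elsewhere. No HP1a peak of the stretch reached 4 kb after HP1b knockdown. Of the peak bases of the stretch, a minority lay in genes: 22.7%, 28.5%, 25.2% and 21.5% of member peak bases lay in bodies of other protein-coding genes, in the order of groups above, although such bodies filled 45.4% of the stretch. In the rest of the genome 38.8%, 36.6%, 37.1% and 33.6% of peak bases lay in gene bodies.

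Coverage was highest within 100 kb of a ZNF gene, although no member peak touches one. In the 9.57 Mb nearest to ZNF bodies, HP1b covered 16.4% ± 0.247 in wild type, against 5.96% at 100 to 500 kb, 5.65% at 500 to 1000 kb and 7.17% farther away. HP1a in wild type covered 5.16% ± 0.403 of the nearest zone and 1.78%, 1.66% and 2.57% of the others. After HP1b knockdown HP1a still covered 1.77% ± 0.161 of the nearest zone, and 0.707%, 0.812% and 0.899% of the others. The HP1a share of peak bases was higher after knockdown in every zone, by 2.29-fold nearest to ZNF genes, 2.64-fold and 3.27-fold in the middle zones and 2.32-fold beyond 1000 kb. The difference in share was thus present at every distance from ZNF genes. With 100 kb around ZNF genes left out, the HP1a share was 0.989% in wild type and 2.66% after knockdown.

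**Figure D2:**
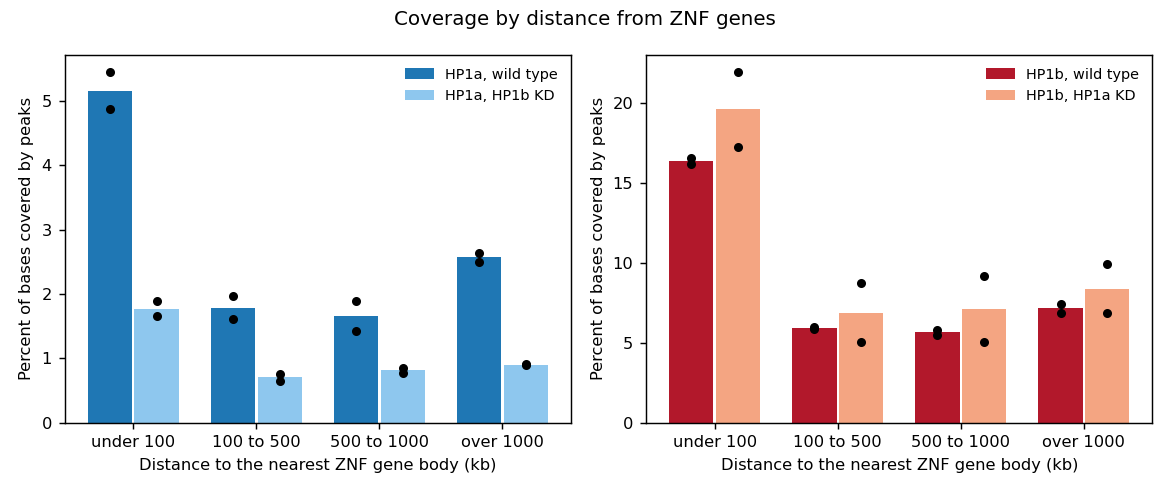
Percent of bases covered by peaks (vertical axis) in 4 zones of distance from the nearest ZNF gene body (horizontal axis, kb), for HP1a ChIP on the left and HP1b ChIP on the right. Bars are group means and dots the 2 libraries: HP1b in wild type covers 16.4% of the nearest zone and between 5.65% and 7.17% of the others.

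Individual regions of wild type recurred in the other group at a higher percentage here than elsewhere. A region was called replicated where peaks of both libraries of a group shared at least 1 base. There were 457 replicated regions for HP1a in wild type, 73 for HP1a in HP1b knockdown, 1848 for HP1b in wild type and 2062 for HP1b in HP1a knockdown. Of the 457, 108 overlapped a peak of 1 or both HP1b knockdown libraries, or 23.6% (95% Wilson interval 20.0 to 27.7%, which covers counting error only), beside 10.8% outside chromosome 19. Of the 1848 HP1b regions of wild type, 84.4% were met after HP1a knockdown, beside 64.4% elsewhere. Of the 457 HP1a regions, 91.9% were met by HP1b in wild type, beside 75.2% elsewhere. With peaks of a −log10 p of at least 4, 16.9% of HP1a regions were met after HP1b knockdown, beside 13.7% elsewhere. For HP1b regions after HP1a knockdown this was 65.3%, beside 60.7%. At this limit both differences were within the counting error of the stretch. The stretch also held more coverage than the rest in every group, and the part this has in the difference was not tested.

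The widest replicated HP1a region of wild type, at chr19:27759712-27773563, lies in gene-free sequence 1432 kb from UQCRFS1. It spans 13852 bases, with fold enrichments of 3.72 and 3.78. HP1b peaks overlapped it in wild type, where the region spans 19836 bases, and after HP1a knockdown, where it spans 18619 bases, and no HP1a peak of HP1b knockdown met it. The strongest replicated HP1a regions of wild type lie between pregnancy-specific glycoprotein genes: chr19:42804285-42804685, with folds of 4.67 and 5.12, and chr19:43228708-43229892, with folds of 6.18 and 4.66. Only the latter was met after HP1b knockdown. In HP1b knockdown the replicated HP1a region with the highest fold was chr19:28435904-28436228 (folds of 4.28 and 3.93), which lies 769 kb from UQCRFS1 and was met by HP1b in both groups but not by HP1a in wild type.

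In bins of 1 Mb the higher share after HP1b knockdown ran along nearly the whole stretch. The values were the peak-covered bases of a bin per Mb of all peak bases of the library, fitted on the log2 scale with a small added constant by limma over all bins of the genome. Of 48 bins, 46 could be fitted, and the 2 from 25 to 27 Mb held no peak in any library. For HP1a, 27 of 46 bins were higher after HP1b knockdown and 0 were lower (limma, adjusted p below 0.05), where 7.23% of bins of the genome were higher and 7.33% lower. The median log2 change was 1.12 on chromosome 19 and −0.34 over all bins. Without division by the total, none was higher and 39 were lower, with medians of −1.21 and −2.62, so the increase is one of share and not of covered bases. The count of 27 was 1 at a −log10 p of at least 4, 12 without the filter, and 12 and 9 without wild-type replicate 1 or 2. In covered bases, the knockdown libraries lay below both wild-type libraries in 42 bins (96.7% of bins of the genome) and above both in 1 bin (0.486%).

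That bin, from 50 to 51 Mb, runs from VRK3 to KLK8 and includes the genes of synaptotagmin SYT3, the myosin MYH14 and the first kallikreins. HP1a peaks covered 2.09% and 2.06% of it in wild type and 2.23% and 2.30% after HP1b knockdown. Its log2 change of share was 2.57 (SE 0.20, limma adjusted p = 0.00209), the highest of the stretch. The difference in covered bases alone was small, at 0.12 on the log2 scale, and did not pass (limma adjusted p = 0.678). The next were 49 to 50 Mb (log2 change 1.97), 16 to 17 Mb (1.81) and 51 to 52 Mb (1.72), all past the threshold. The other extreme was the gene-free bin next to the centromere, from 27 to 28 Mb, where coverage went from 6.35% and 5.75% to 0.519% and 0.509% and the log2 change of share was −0.73 (SE 0.21, limma adjusted p = 0.0572). It and the bin from 24 to 25 Mb (−0.46) were the only ones with a negative change. Over the 46 bins, coverage ran against the number of genes, with Spearman correlations of −0.72 for HP1a in wild type, −0.42 after HP1b knockdown, −0.74 for HP1b in wild type and −0.64 after HP1a knockdown (a description over neighbouring bins of the same libraries).

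For HP1b, 10 bins were higher after HP1a knockdown and 0 were lower (7.06% and 11.7% of bins of the genome), with a median log2 change of 0.15 against −0.10 over all bins. They fell into a block from 28 to 33 Mb and another from 50 to 53 Mb, with 8 to 9 Mb and 20 to 21 Mb apart from them. The highest was 51 to 52 Mb, with the rest of the kallikreins, the Siglec genes and the formyl peptide receptors: HP1b covered 8.0% and 8.54% of it in wild type and 14.6% and 21.7% after HP1a knockdown (log2 change of share 1.11, SE 0.14, limma adjusted p = 0.00143). The bin from 31 to 32 Mb, whose only gene is TSHZ3, went from 21.5% and 23.2% to 32.8% and 42.2% (0.86, SE 0.16, limma adjusted p = 0.00952). The bin from 29 to 30 Mb, with UQCRFS1, VSTM2B and the cyclin gene CCNE1, went from 13.2% and 14.8% to 18.7% and 29.9% (0.84). The lowest were 42 to 43 Mb (−0.62), 38 to 39 Mb (−0.55) and 45 to 46 Mb (−0.55), and none of these passed. In covered bases, 12 bins were higher without overlap (14.0% of bins of the genome) and 8 lower (46.5%), and only 1 bin, from 51 to 52 Mb, passed when fitted without division by the total. The count of 10 was 1 at a −log10 p of at least 4, 2 without the filter and 1 without either wild-type library.

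Between the antibodies in wild type, 8 bins were higher for HP1b and 0 lower (3.36% and 5.09% of bins of the genome), with a median log2 difference of 0.33 against 0.06 over all bins. The highest was 48 to 49 Mb, at 0.829% and 0.674% for HP1a and 4.75% and 4.77% for HP1b (0.82, SE 0.15, limma adjusted p = 0.00614). The bin next to the centromere, from 27 to 28 Mb, was the lowest (−0.23). In covered bases HP1b was higher without overlap in all 46 bins fitted (98.0% of bins of the genome). The count of 8 was 0 at a −log10 p of at least 4, 0 without HP1b replicate 1 and 19 without HP1a replicate 1. This comparison uses the same wild-type libraries as the knockdown comparisons. The difference between the knockdown effects, tested over all 8 libraries, passed in 0 of the 46 bins by limma (0.0346% of bins of the genome were higher and 0.0346% lower). Its median was −0.95 against 0.18 over all bins. An unadjusted limma p below 0.05 was held by 30 bins, but such bins were not counted over the genome, so this count has no background. Leaving out a single HP1a library of the knockdown changed the number of bins that passed. In those fits the remaining library was assumed to vary like the other groups, so their counts are not given here.

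**Figure D3:**
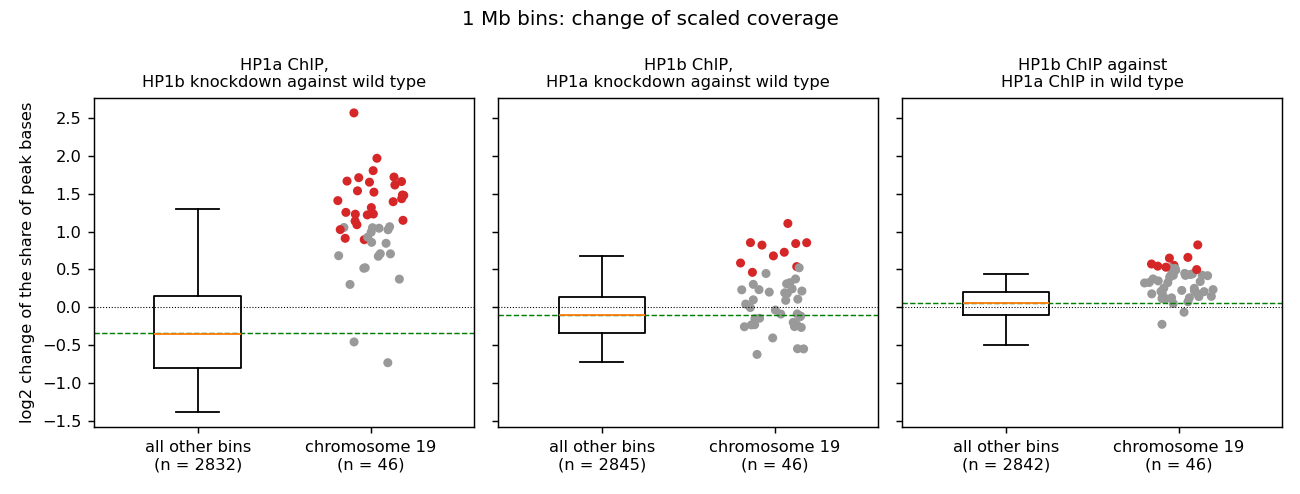
Log2 change of the share of peak bases in 1 Mb bins (vertical axis) for the 3 comparisons. Boxes give the quartiles of all other bins of the genome with whiskers at the 5th and 95th percentile, the dashed line is the median of all bins, and dots are the 46 bins of chromosome 19, red where limma's adjusted p was below 0.05: 27, 10 and 8 dots are red.

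Over genes, in the full lists, HP1a peaks disappeared from some and appeared at few after HP1b knockdown. A gene was taken with 1 kb on each side, and 165 of the 883 genes had no peak in any library while 38 had one in all 8. HP1a was present in both wild-type libraries at 132 genes and in neither HP1b knockdown library at 49 of these, a loss of 37.1% beside 48.2% of such genes in the genome. It was gained at 6 of 60 genes (3.00% in the genome). With equal numbers of the strongest peaks this turned: 1 of 18 genes was lost (23.1% in the genome) and 29 of 59 were gained (24.1%). Of 216 genes fitted because 2 or more of the 4 libraries had a peak there, 15 were higher in share and 32 lower (limma, adjusted p below 0.05), where 1.73% and 29.7% of genes of the genome were called. All 32 lower genes were listed at 0 in both knockdown libraries, as were 5 of the 15 higher genes in wild type, so no fold is given for them. These gene calls depend on the settings. None passed with a 4 times larger constant, without the filter, with the strongest peaks in equal number, or at a −log10 p of at least 4. In the main fit an unadjusted limma p below 0.05 was held by 76 of the 216, beside 3668 of 8566 genes fitted in the genome. Under the other settings, in the order above, 72, 51, 32 and 34 genes of the stretch had such a p. Those were not counted over the genome. Without wild-type replicate 1 or 2 no gene was lower and 0 or 1 was higher, and without knockdown replicate 1 or 2 the higher genes were 55 or 72. In covered bases, 21 genes were higher without overlap (1.53% of genes fitted in the genome) and 80 lower (79.2%).

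Genes for neuronal proteins and ion channels were among the higher ones. Of the 25 genes on this list, 13 could be fitted, 4 were higher and 0 lower, beside 15 and 32 of the 216 in the stretch and 1.73% and 29.7% in the genome. Over all 25 the mean coverage was 0.793% and 0.829% in wild type and 1.26% and 1.28% after HP1b knockdown. This higher mean does not stand for every gene. In covered bases 3 of the 13 were higher without overlap and 1 lower, beside 1.53% and 79.2% of genes fitted in the genome. Over all 883 genes mean coverage was 1.03% and 0.778% in wild type and 0.557% and 0.503% after knockdown. The median log2 change of share was 1.95 over the 13, 0.76 over the 216 and −1.27 over all genes fitted in the genome. SYT3, a synaptotagmin, was covered 0.425% and 0% in wild type and 4.51% and 7.65% after knockdown. UNC13A, which primes synaptic vesicles for release, went from 1.07% and 1.49% to 3.78% and 2.56% (log2 change of share 3.71, SE 0.54, limma adjusted p = 0.0245). GRIN2D, an NMDA receptor subunit, went from 1.498% and 0.375% to 2.39% and 2.44% (3.60, SE 0.67, limma adjusted p = 0.0356). In these 3 genes the knockdown libraries lay above both wild-type libraries in covered bases as well. SHANK1, a scaffold of the synapse, lay below, at 1.35% and 1.45% in wild type and 0.416% and 0.448% after knockdown. CACNA1A, a calcium channel of nerve terminals, rose in share alone: its coverage was 2.15% and 1.29% in wild type and 1.71% and 1.16% after knockdown (2.42, SE 0.39, limma adjusted p = 0.0277).

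Other higher genes were of mixed kind. HIF3A, a subunit of the hypoxia-inducible factors, was covered 5.33% and 6.63% in wild type and 6.52% and 7.08% after HP1b knockdown, so the groups overlapped in covered bases while the share rose (log2 change 2.80, SE 0.40, limma adjusted p = 0.0243). CCDC159 had no HP1a peak in wild type and was 9.28% and 10.3% covered after knockdown. The same pattern held for KLK15, a serine protease (4.46% and 3.45%), and for MAST1, a microtubule-associated kinase (0.773% and 1.06%). MYBPC2, a myosin-binding protein of fast muscle, was also gained, at 4.22% and 0.663%, but its change in share did not pass (limma adjusted p = 0.0791).

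The 32 lower genes could be fitted through their wild-type peaks alone, so their counts are a description and no support for a family. Of the 12 CYP2 and CYP4F genes, which encode drug- and fatty-acid-metabolising cytochromes, 7 could be fitted for HP1a, and CYP4F3, CYP4F11, CYP4F12 and CYP2B6 had peaks in both wild-type libraries and in neither HP1b knockdown library, where 29.7% of genes fitted in the genome were lower. CYP4F3 was covered 4.41% and 3.05% in wild type, and CYP4F12 1.61% and 1.40%. Of the 16 chromatin regulators, 6 could be fitted and 3 were listed at 0 after knockdown in the same way, among them the maintenance DNA methyltransferase gene DNMT1 (0.572% and 0.613% in wild type) and SAFB2 (1.25% and 1.86%). The highest coverage lost was that of FXYD5, a regulator of the sodium pump and of cell adhesion, at 9.61% and 14.1%. The zinc finger gene ZFP82 lost 7.18% and 6.31%, the dynamin gene DNM2 2.18% and 0.740%, the receptor kinase gene AXL 1.25% and 1.30%, the kinase gene PAK4 0.918% and 0.723%, the augmin gene HAUS8 1.87% and 1.68%, and ETV2 3.92% and 3.86%. LOC124904660 was covered 10.2% and 10.5% in wild type. This gene is 767 bases long, and with 2 kb on each side its change turned to 0.58 on the log2 scale.

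For HP1b no gene passed after HP1a knockdown by limma, in this stretch (0 of 488 fitted, 0.00% in either direction) or in the genome. An unadjusted limma p below 0.05 was held by 120 of the 488, beside 3180 of 12855 genes fitted in the genome. Loss was common all the same: HP1b was present in both wild-type libraries at 364 genes and in neither knockdown library at 85 of them, or 23.4%, beside 14.5% in the genome, and it was gained at 8 of 210 genes (2.82% in the genome). The count of 85 rests on both knockdown libraries, since 201 genes lacked a peak when only replicate 1 was counted. That library covered 2.13% of the gene windows on average and replicate 2 covered 5.03%, on either side of 3.29% and 3.77% in wild type.

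Of the genes that lost HP1b, those with the strongest falls by limma are named, none of which passed the adjusted test. ARHGAP35, a GTPase-activating protein, was covered 2.84% and 3.27% in wild type and was listed at 0 after HP1a knockdown. MARK4, a kinase of microtubule-associated proteins (6.81% and 4.92%), the actin crosslinker gene ACTN4 (3.01% and 3.94%), the elongation factor gene ELL (2.92% and 2.57%), the Mediator gene MED26 (3.52% and 3.22%) and the SUMO-activating enzyme gene SAE1 (1.98% and 2.51%) were likewise listed at 0 after knockdown. Among 16 chromatin regulators 8 could be fitted, and 4 of these, SAFB, CARM1, SUPT5H and SMARCA4, were lower without overlap, near the 41.7% of genes fitted in the genome. Mean coverage over the 16 was 1.20% ± 0.491 in wild type and 0.313% ± 0.218 after knockdown. Among 12 TGF-beta and mesenchymal genes 9 could be fitted. AXL, TGFB1, GDF15, ICAM1 and PDCD5 were listed at 0 after knockdown, while TSHZ3 and NOTCH3 lay above both wild-type libraries, beside 41.7% lower and 10.1% higher without overlap in the genome. Of 9 ribosomal protein genes, 6 had no peak in any library, and the other 3 had HP1b peaks in a single wild-type library each.

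TSHZ3, a zinc finger and homeobox factor of smooth muscle and neural development, was among the genes with more HP1b after HP1a knockdown. It was covered 18.8% and 19.4% in wild type and 28.3% and 40.5% after HP1a knockdown (log2 change of share 0.99, SE 0.15, limma adjusted p = 0.145). CD33, an inhibitory receptor of myeloid cells, went from 6.73% and 9.67% to 23.9% and 41.6% (2.01, SE 0.37, limma adjusted p = 0.145). VSTM2B went from 22.02% and 20.1% to 35.1% and 50.9%, CLEC17A from 3.48% and 4.41% to 14.1% and 22.1%, and ADGRE1, an adhesion receptor of immune cells, from 11.8% and 12.9% to 22.6% and 27.2%. In these 5 genes the groups did not overlap, as in 10.1% of genes fitted in the genome, and none passed the adjusted test. Among gained genes, the potassium channel gene KCNA7 went from 0 to 5.44% and 28.3% and KLK10 from 0 to 7.13% and 10.9%.

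**Figure D4:**
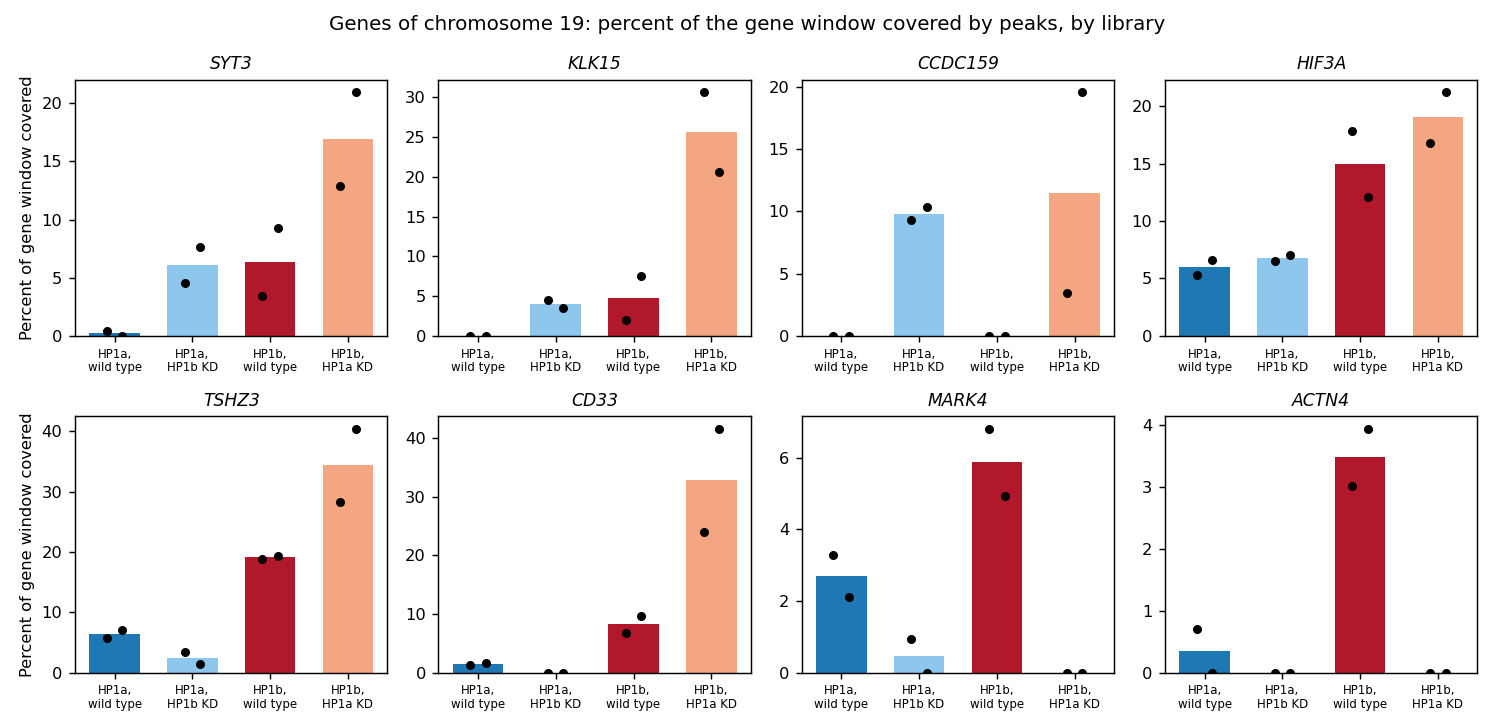
Percent of the gene window (body with 1 kb on each side, vertical axis) covered by peaks for 8 genes in the 4 groups (KD, knockdown). Bars are group means and dots the 2 libraries: SYT3, KLK15 and CCDC159 have more HP1a coverage after HP1b knockdown, HIF3A has about as much, TSHZ3 and CD33 have more HP1b coverage after HP1a knockdown, and MARK4 and ACTN4 have none there.

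The kallikrein and Siglec families, which lie next to each other around 51 Mb apart from SIGLEC11 and SIGLEC16, held the largest HP1b coverage after HP1a knockdown among the families examined. The 15 kallikreins, secreted serine proteases of skin, prostate and breast epithelium, were covered 9.28% and 7.72% on average in wild type and 12.6% and 30.0% after HP1a knockdown. The knockdown libraries lay above both wild-type libraries in 8 of the 15 and below both in 1, KLK4 (10.1% and 41.7% of genes fitted in the genome). The median log2 change of share was 1.55, beside −0.32 over the stretch and −0.50 over the genome. KLK3, which encodes prostate-specific antigen, went from 7.83% and 0% to 25.4% and 40.7%. The 12 CD33-related Siglecs, receptors of immune cells for sialic acid, were covered 5.42% and 8.85% in wild type and 17.8% and 28.5% after HP1a knockdown. The knockdown libraries lay above both wild-type libraries in 8 of them and below both in 0, and the median log2 change was 1.55. SIGLEC8 went from 3.02% and 19.2% to 42.0% and 70.2%. Neighbouring members share peaks, so they are not independent, and reads of near-identical copies such as SIGLEC5 and SIGLEC14 may have been placed on either.

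HP1a coverage of both families was below that of HP1b. Kallikreins were covered 1.62% and 1.58% by HP1a in wild type and 0.658% and 1.42% after HP1b knockdown, with KLK15 gained and KLK13 lost. Siglecs were covered 0.853% and 2.21% in wild type and 3.21% and 0.617% after HP1b knockdown, with SIGLEC6 higher in share and CD33 lost.

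The CEACAM and pregnancy-specific glycoprotein genes encode adhesion molecules of epithelium and placenta. Over the 22 genes HP1b covered 6.95% and 7.49% in wild type and 3.36% and 7.77% after HP1a knockdown, and the knockdown libraries lay above both wild-type libraries in 3 genes and below both in 6, beside 10.1% and 41.7% in the genome. HP1a covered 1.52% and 2.22% of them in wild type and 0.957% and 0.429% after HP1b knockdown, and PSG1 and PSG6 lost their HP1a peaks. The pregnancy-specific glycoprotein genes among them are near-identical copies as well. The 19 olfactory receptor genes, which are silent outside the nose in most cell types, were covered by HP1b at 8.57% and 10.8% in wild type and 9.43% and 21.4% after HP1a knockdown, and by HP1a at 1.32% and 1.65% in wild type and 1.70% and 3.50% after HP1b knockdown. Of the galectins and interferon lambda genes, the gonadotropin beta subunits and the apolipoproteins, 0 members could be fitted for HP1a. HP1b covered the 9 galectin and interferon lambda genes at 3.65% and 6.30% in wild type and 0.387% and 1.999% after HP1a knockdown. Of 16 epithelial and epidermal genes 2 could be fitted for HP1a: HIF3A was higher in share, and KLK5 was lower in covered bases without overlap, at 5.16% and 4.01% in wild type and 3.18% and 0% after HP1b knockdown. Of 8 genes on a list of other C2H2 zinc finger genes, which also names PRR12, not a zinc finger gene, 3 could be fitted, and ZFP82 was listed at 0 after HP1b knockdown.

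**Figure D5:**
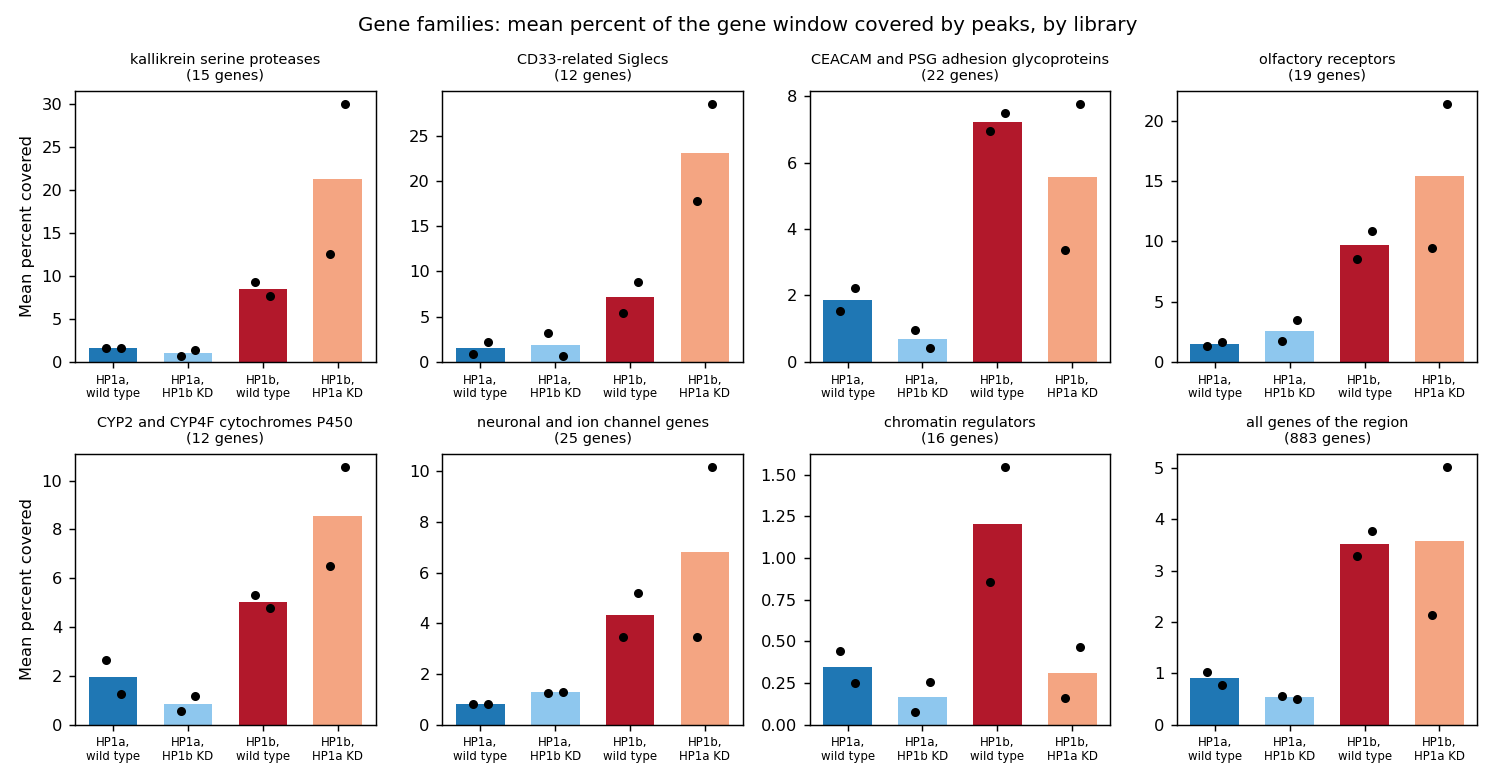
Mean percent of the gene windows covered by peaks (vertical axis, scale differing between panels) over 7 gene families and over all 883 genes, in the 4 groups (KD, knockdown). Bars are group means and dots the 2 libraries: HP1b covers kallikreins and Siglecs at 5.42% to 9.28% in wild type and 12.6% to 30.0% after HP1a knockdown, and chromatin regulators at 1.20% and 0.313%.

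Between the antibodies in wild-type cells, 287 of 466 genes fitted had more HP1b than HP1a coverage without overlap and 7 had less, near the 57.4% and 2.97% of genes fitted in the genome. No gene passed between the antibodies by limma (0 of the 466, 0.00% in either direction). An unadjusted limma p below 0.05 was held by 99 of the 466, beside 1650 of 12813 genes fitted in the genome. HP1b was present where HP1a was absent at 118 of 364 genes, or 32.4%, beside 12.5% in the genome, and the reverse held at 5 of 132 genes (1.60% in the genome). They included ETV2 (3.92% and 3.86% for HP1a), ELAVL3, CD22 and BSPH1. ZNF585B had the highest HP1b coverage in wild type, at 43.6% and 46.1%, and was covered 7.79% and 7.38% by HP1a. ZNF780B was covered 25.1% and 24.5% by HP1b and 0.731% and 0% by HP1a, and ZFP14 29.5% and 24.7% against 3.16% and 2.16%. Outside zinc finger genes, the glutamate transporter gene SLC1A6 was covered 9.57% and 12.1% by HP1b and 0.404% and 0.890% by HP1a. DHDH, at 19.2% and 16.1%, and WDR62, a gene of centrosomes and brain growth, at 4.17% and 4.18%, had HP1b peaks and no HP1a peak. HP1b peak lists were longer, with 239826 peaks on average against 124811. With equal numbers of the strongest peaks, HP1b was present where HP1a was absent at 16 of 149 genes, or 10.7%, beside 4.87% in the genome. The reverse then held at 18 of 127 genes, or 14.2%, beside 8.16% in the genome. The part of list length in the counts of covered bases was not tested.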

How the data were processed

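Peak lists of 8 ChIP-seq libraries of MCF10A cells were used. Per the submitters' processing notes, the tools were Trimmomatic, Bowtie2, SAMtools and MACS3, with hg38. Versions, peak-calling settings and use of an input are not stated in any source used here. Per the deposited lists, peaks were called per library, and each peak carries the authors' score (10 times its −log10 q), a fold enrichment ratio, a −log10 p and a −log10 q. They hold no counts of reads, so depth is unknown, and a place at 0 is one with no listed peak.

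Peaks overlapping within a list were merged. Gene bounds came from RefSeq (GRCh38.p14), with 19974 protein-coding genes. Bins of 1 Mb and genes with 1 kb on each side were fitted genome-wide, without peaks over ZNF genes, with limma 3.58.1 (R 4.3.3) on log2 of peak bases per Mb of all peak bases plus a pseudocount, the 10th percentile of values above 0. A feature needed a peak in 2 libraries. A gene or bin listed at 0 in a group passed only through the other group. P values were adjusted by Benjamini-Hochberg over all fitted features at 0.05, and the code was tested on simulated data. Other measures were computed in Python 3.11.15 with exact permutation tests (two-sided) for shares.

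Named genes were the 6 strongest falls and 6 strongest rises by limma in each comparison, up to 4 lost and 4 gained ones ranked by fold in the weaker library, and the 3 most covered members of every list. Further genes are named where they make up a small count or a called member of a list, and were chosen after their values were seen. The members and lists were chosen with earlier results of these data known. Alternatives were stricter peaks (−log10 p of at least 4), equal numbers of top peaks, other pseudocounts, filters, scalings, bin sizes and overlaps, a replicate block, and leaving out each library. Same-numbered libraries were checked for shared deviations. Some named genes and regions are not reported here. No peak sequences were read, since no genome was used.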

Additional observations from a re-analysis of the deposited data

Results flagged for a closer look

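Of 81 named genes, 3 moved in opposite directions for the 2 proteins in their share of peak bases: both HP1b knockdown libraries lay on one side of the wild-type HP1a libraries, and both HP1a knockdown libraries on the other side of the wild-type HP1b libraries. These genes were named for high values or strong changes, and in the genome 79.2% of genes fitted were lower for HP1a and 10.1% higher for HP1b without overlap in covered bases. Covered bases are another measure than share, and opposite moves in share were not counted over the genome. The values are percentage points of the gene window covered by peaks. For CD33, HP1a coverage was lower by 1.49 points after HP1b knockdown (−1.49) and HP1b coverage was 24.6 points higher after HP1a knockdown, a difference of 26.1 points. For CYP4F12 the changes were −1.50 and 21.0 points (difference 22.5), and for ZFP82 −6.75 and 11.8 points (difference 18.5). These differences were not tested gene by gene.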

How the results depend on the processing

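The higher share of the stretch, and of chromosome 19, kept its direction in all 3 comparisons under every setting tried, except whole chromosome 19 for HP1b on HP1a knockdown, at −0.933 points with a −log10 p of at least 4. The cause of the changes below was not tested. Counts of bins and genes called by limma under other settings are given without their genome shares and are descriptions only. The setting of 250 kb splits the stretch into more bins than that of 1 Mb, so its counts cannot be set beside the others. Fits with a library left out leave 1 library in a group, whose spread was assumed to be like that of the other groups. In the order HP1a on HP1b knockdown, HP1b on HP1a knockdown and HP1b against HP1a, regions met were 16.9, 65.3 and 55.9% at that limit, 33.3, 88.0 and 80.6% with equal numbers of top peaks, 7.44, 69.9 and 75.3% at 50% overlap, and 11.8 to 13.6%, 60.5 to 77.8% and 61.8 to 80.3% with a library left out. Genes lost were 23 (43.4%, 47.8% in the genome), 6 (17.1%, 12.3%) and 14 (26.4%, 15.0%) at −log10 p of at least 4. With top peaks they were 1 (5.56%, 23.1%), 49 (22.6%, 13.4%) and 18 (14.2%, 8.16%). With a library left out they were 64 to 160 (48.5 to 57.6%, 54.5 to 65.2% in the genome), 92 to 201 (25.3 to 55.2%, 17.6 to 34.4%) and 10 to 26 (7.58 to 9.09%, 4.25 to 5.91%). Genes gained were 6 (19.4%, 8.24% in the genome), 9 (19.6%, 11.6%) and 6 (17.1%, 8.52%) at −log10 p of at least 4. With top peaks they were 29 (49.2%, 24.1%), 18 (9.78%, 4.81%) and 16 (10.7%, 4.87%). With a library left out they were 10 to 45 (16.7 to 31.9%, 6.17 to 10.8% in the genome), 15 to 59 (6.52 to 16.2%, 4.57 to 8.06%) and 164 to 206 (39.8 to 55.8%, 18.6 to 26.8%).

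For HP1a on HP1b knockdown, bins higher were 1 at −log10 p of at least 4, 17 with top peaks, 12 without the filter, 0 without scaling and 9 to 39 with a library left out. Bins lower were 1 with top peaks, 39 without scaling, 2 at 250 kb and 0 to 2 with a library left out. Genes higher were 0 at the stricter limit, with top peaks, without the filter and with 4 times the pseudocount, 6 without scaling and 0 to 72 with a library left out. Genes lower were 0 under the first 4 of these and 0 to 20 with a library left out. For HP1b on HP1a knockdown, bins higher were 1 at the stricter limit, 2 without the filter, 1 without scaling, 29 at 250 kb and 1 to 15 with a library left out. Bins lower were 2, 3 with top peaks, 2 without 100 kb around ZNF genes, 13 at 250 kb and 0 to 9 with a library left out. With a library left out, genes higher were 1 to 12 and genes lower 1 to 35. For HP1b against HP1a, bins higher were 0 at the stricter limit, 13 with top peaks, 0 without the filter, 46 without scaling, 5 without 100 kb around ZNF genes, 0 at 250 kb and 0 to 19 with a library left out, and genes higher 0 to 8. For the difference between knockdown effects, bins higher were 25 without scaling and 0 to 1 with a library left out, and bins lower 1 with 4 times the pseudocount and 0 to 31 with a library left out.

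Same-numbered libraries are not stated to be paired, and their deviations correlated at 0.0499, 0.318 and −0.208 over bins. With a replicate block, HP1a on HP1b knockdown had 33 bins higher and 1 lower and 0 genes higher or lower, HP1b on HP1a knockdown 13 and 4 bins and 1 and 1 genes, and HP1b against HP1a 5 and 0 bins.

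Among named features, HP1a changes turned without scaling at 49 to 50 Mb (−0.25), 16 to 17 Mb (−0.44) and 51 to 52 Mb (−0.75), that of HIF3A at the stricter limit (−1.07) and that of LOC124904660 with a 2 kb flank (0.58). HP1b against HP1a turned at the stricter limit at 48 to 49 Mb (−0.27), 38 to 39 Mb (−0.24) and 9 to 10 Mb (−0.21). Depth is unknown, so a missing peak may lie below what a library could show.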
